A study of Homo sapiens with 4 samples.

Results

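The genes described here are 49 genes of DNA replication and origin licensing, chosen by gene symbol from the 58735 genes in the deposited table. They comprise the 6 subunits of the origin recognition complex, 3 genes of helicase loading, the 6 subunits of the MCM2-7 helicase core, 6 genes of the CMG helicase and origin firing, 9 of the replicative polymerases and primase, 6 of the sliding clamp and clamp loader, 5 of single-strand binding and Okazaki fragment processing, 4 of nucleotide supply and 4 transcription and chromatin regulators of the S phase programme. RNA was sequenced from 2 libraries per group of OVCAR8 cells, a long-established line from a human ovarian cancer. Control cells (shCON) carried a scrambled short hairpin in a GIPZ lentiviral plasmid, and the cells labelled shFAM49B carried GIPZ hairpins against FAM49B, a gene whose protein binds the GTPase RAC1. Per the labels' protocols, plasmids were introduced with a Lipofectamine reagent and RNA was taken 36 h after it, but the series' design text calls the knockdown stable. Hairpin sequences and selection of cells are not given in these sources. Nothing in the labels makes replicate libraries separate cultures, so p-values reflect the spread of these samples alone, and that spread may be technical.

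Before S phase, the origin recognition complex marks start sites on chromatin, and CDC6 and CDT1 then load the ring-shaped MCM2-7 helicase onto them, a step called licensing. Geminin, the product of GMNN, binds CDT1 and blocks a second loading in the same cycle. At the start of S phase CDC45 and the GINS complex join MCM2-7 to form the active CMG helicase, which unwinds DNA ahead of the polymerases, while the sliding clamp PCNA, placed by replication factor C, tethers them to the template. Many of these genes are transcribed around the transition from G1 to S phase under E2F factors, and proliferating cancer lines such as this one express them strongly. In RNA from whole cultures, fewer cells in a phase of the cycle and less RNA per cell cannot be told apart.

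FAM49B, the targeted gene, measured 7.41 and 7.6 FPKM in the shCON libraries and 1.06 and 1.02 FPKM in the shFAM49B libraries, where FPKM, the deposited unit, relates reads to gene length and to sequencing depth. Both libraries labelled shFAM49B lay below both controls, 7.21-fold lower in the mean. KRT5, a basal epithelial keratin, was 15.4-fold lower in the same libraries. Of 10 markers of ovarian carcinoma and epithelium, 5 passed the filter on low levels. Of those, 3 (CD24, EPCAM and KRT18) were called lower in shFAM49B, against 15.8% of all tested genes. The summed level of the 10 was 81.1 to 84.0 FPKM in shCON and 64.2 to 64.3 FPKM in shFAM49B. KRT8, which was not called, and KRT18 made up most of it, while PAX8, MUC16 and KRT7 stood below 0.2 FPKM in every library. EPCAM measured 2.94 and 2.96 FPKM in shCON and 0.129 and 0.345 FPKM in shFAM49B. CD24 measured 8.84 and 8.52 FPKM in shCON and 1.14 and 0.842 FPKM in shFAM49B. Summed fibroblast markers ranged over 6.41 to 6.82 FPKM in shCON and 6.35 to 6.98 FPKM in shFAM49B, nearly all of it COL1A1. Endothelial markers summed to 0.457 to 0.501 FPKM in shCON and 0.19 to 0.226 FPKM in shFAM49B, with 4 of 5 below 0.2 FPKM in every library. The immune markers PTPRC, CD3E, CD68, CD14 and LYZ each stood below 0.2 FPKM in every library. Mitochondrial ribosomal RNA took 0.447% and 0.376% of reads in shCON and 1.09% and 1.07% in shFAM49B. The part of these differences in the results on replication genes was not tested.

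More replication genes were higher in shFAM49B than in the control, and by modest amounts. All 49 reached the required mean of 1 FPKM across the 4 libraries, as did 13775 genes in all. In limma's fit to log2(FPKM + 1), with Benjamini-Hochberg adjustment over all tested genes and a threshold of 0.05, 24 of the 49 were higher, none was lower and 25 did not pass. Over all tested genes, 26.4% were called higher and 15.8% lower. At an unadjusted p under 0.05, 28 replication genes were higher and 1, E2F8, was lower, against 31.6% and 20.2% of all tested genes. Limma's voom fit to the recovered reads called 29 higher and 0 lower, against 31.1% and 20.3% of all. The median log2 fold change was 0.23 over the 49 genes and 0.05 over all tested genes. Both shFAM49B libraries stood above both shCON libraries for 35 replication genes and below both for 5, against 43.1% and 31.6% of all tested genes, and the groups overlapped for 9. Only CDT1 changed by as much as 2-fold, and 7 of the 24 rose at least 1.5-fold: CDT1, MCM5, MCM7, E2F1, POLD1, MCM2 and ORC1. The shares of all tested genes at these folds are not given, so these counts have no like share beside them. The 5 genes below in both shFAM49B libraries, none of them called, were ORC6, PCNA, E2F2, E2F8 and UHRF1.

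**Figure D1:**
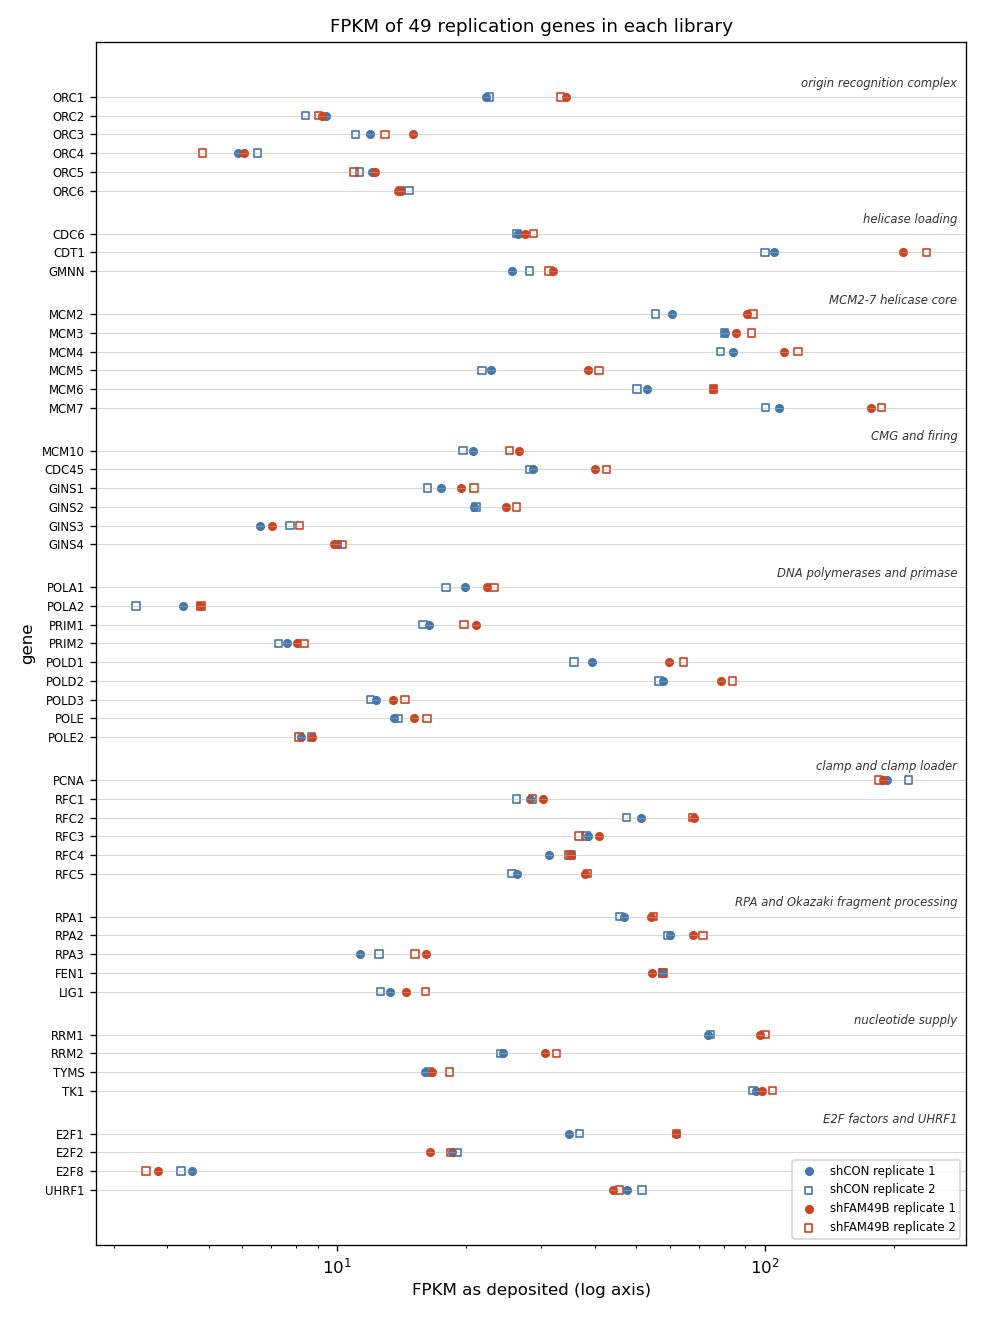
FPKM (log axis) of the 49 replication genes in each of the 4 libraries, grouped by complex; circles are replicate 1, squares replicate 2, blue shCON and red shFAM49B. For CDT1 the shFAM49B libraries stand at 210.3 and 238 FPKM, apart from the controls, while the 4 points of genes such as ORC5 and FEN1 intermix.

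**Figure D2:**
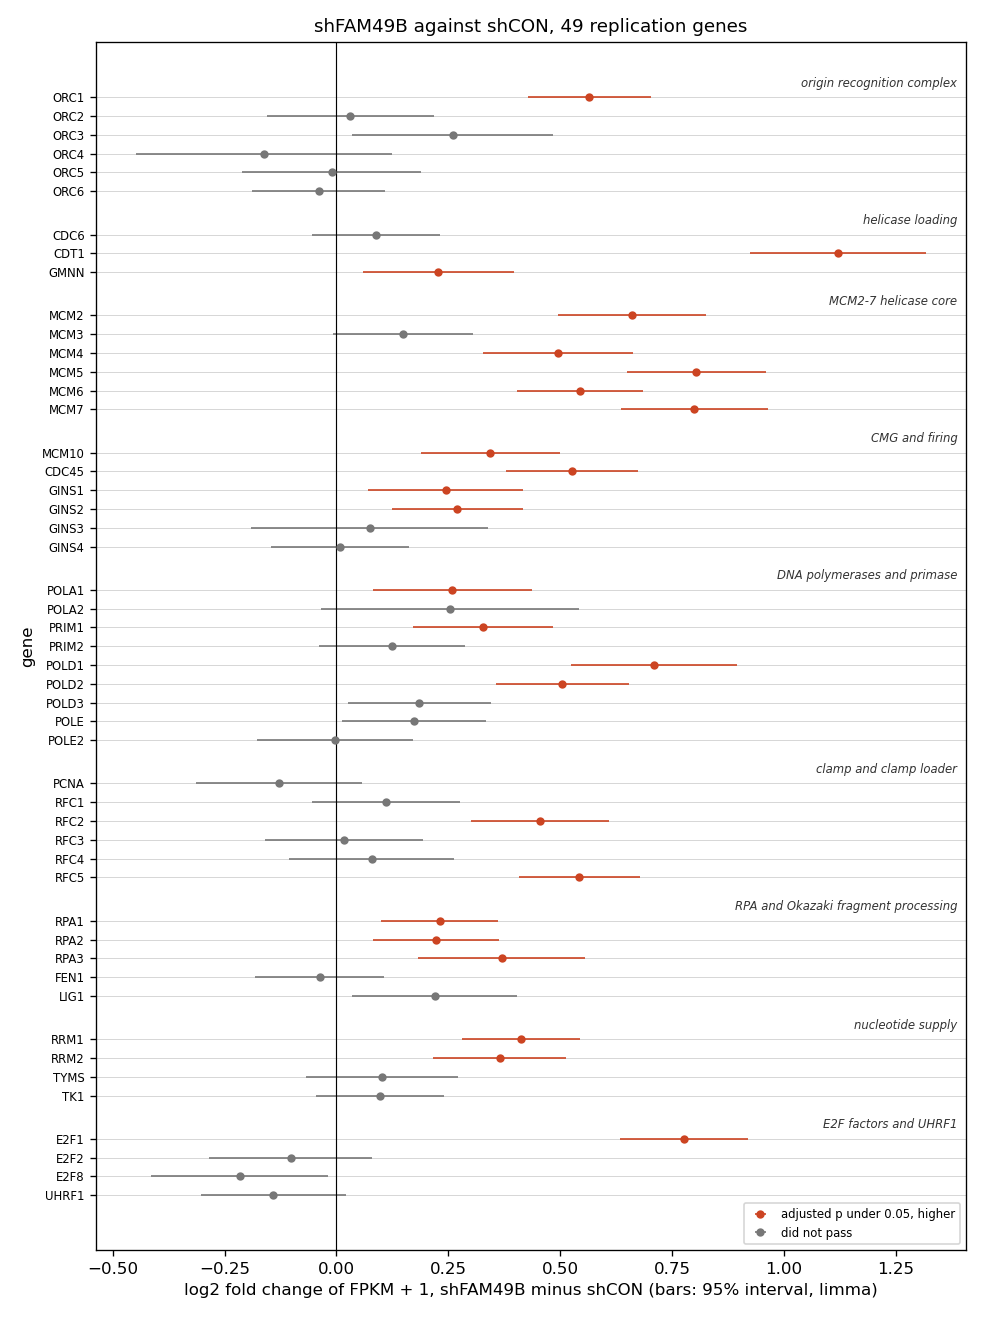
Log2 fold change of FPKM + 1, shFAM49B minus shCON, for each replication gene with its 95% interval from limma; red marks the 24 genes called higher and grey the 25 that did not pass. Values run from -0.22 for E2F8 to 1.12 for CDT1, and the MCM2-7 block lies farthest to the right as a group.

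The share of genes called higher grew with their level. Of all tested genes, 12.1% were called higher at a mean of 1 to 5 FPKM, 29.6% at 5 to 20 FPKM, 52.4% at 20 to 100 FPKM and 82.3% at 100 FPKM and above. The replication genes, with a median level of 28.1 FPKM, lay mostly in the upper classes. They were called in 0 of 2 cases in the lowest class (POLA2 and E2F8), in 3 of 17 at 5 to 20 FPKM (17.6%), in 19 of 27 at 20 to 100 FPKM (70.4%) and in 2 of 3 at 100 FPKM and above (CDT1 and MCM7, but not PCNA). Their share was thus below that of all genes in 3 of the 4 classes and above it in the class of 20 to 100 FPKM. Across the 49 genes the log2 fold change correlated with log2 mean level (Pearson r = 0.49, Spearman rho = 0.45) and with the G and C content of the gene (r = 0.50, rho = 0.35). Over all tested genes the same values were 0.25 and 0.29 for level and 0.13 and 0.19 for G and C content. These are correlations across genes, which share libraries and depth and are not independent replicates.

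**Figure D3:**
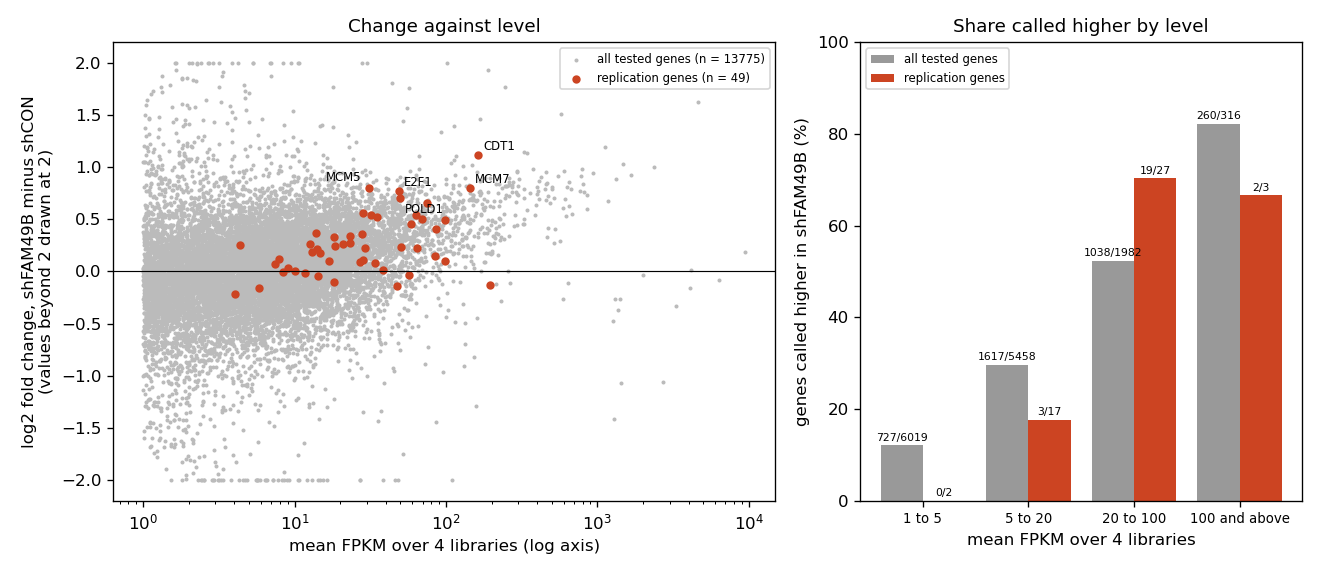
Left, log2 fold change of FPKM + 1 against mean FPKM (log axis) for all 13775 tested genes (grey) and the 49 replication genes (red). Right, percent of genes called higher in 4 classes of mean FPKM, with the count above each bar; in the class of 20 to 100 FPKM the bars stand at 52.4% for all genes and 70.4% for replication genes.

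E2F factors and the CCAAT-binding factor NF-Y are known to act at many promoters of replication genes, so promoter sequence is shown for the 4 called genes of largest rise with an entry in the RefSeq table (GRCh38.p14), CDT1, MCM7, E2F1 and POLD1, and for PCNA, which was added after its values were seen and did not pass. The window searched was the 250 bases before the RefSeq start. It lies in an exon of GENCODE release 29 throughout for CDT1 and MCM7, so only 24 bases around each E2F-type match are printed for them, at chr16:88803746-88803769 (plus strand) for CDT1 and at chr7:100101569-100101592 and chr7:100101398-100101421 (minus strand) for MCM7. For the others the part of the window outside exons is printed. For E2F1 and PCNA it is extended to the start, over a few exon bases (19 for E2F1). The printed parts are at chr20:33686386-33686635 (minus strand) for E2F1, chr19:50384073-50384203 (plus strand) for POLD1 and chr20:5126623-5126785 (minus strand) for PCNA. Capitals mark matches to an E2F-type motif (TTTCCCGC, TTTCGCGC, TTTGCCGC or TTTGGCGC, on either strand) or to CCAAT (on either strand).
CDT1: gggcgcccGCGGGAAAtttggcgg
MCM7, farther from the start: ctcggaccGCGGGAAAcccggcgc
MCM7, nearer to the start: acgtggggggcgacgTTTCGCGCc
E2F1: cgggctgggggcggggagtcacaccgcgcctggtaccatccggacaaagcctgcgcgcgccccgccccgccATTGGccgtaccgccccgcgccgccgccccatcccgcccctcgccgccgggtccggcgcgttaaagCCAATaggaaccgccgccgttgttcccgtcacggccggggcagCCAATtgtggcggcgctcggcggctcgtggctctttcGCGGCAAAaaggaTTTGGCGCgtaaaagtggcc
POLD1: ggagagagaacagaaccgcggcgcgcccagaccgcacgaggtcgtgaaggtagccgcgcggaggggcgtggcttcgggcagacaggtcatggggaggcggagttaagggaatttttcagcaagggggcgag
PCNA: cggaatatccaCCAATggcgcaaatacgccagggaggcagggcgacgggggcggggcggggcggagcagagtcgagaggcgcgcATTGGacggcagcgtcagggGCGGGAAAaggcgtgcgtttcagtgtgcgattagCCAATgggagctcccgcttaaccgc

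The E2F-type motif stood once in the CDT1 window, at 2 places each in those of MCM7 and E2F1 and once in that of PCNA, and CCAAT stood at 2 places in MCM7 and at 3 each in E2F1 and PCNA. Neither stood in the POLD1 window. Of the 42 replication genes with an entry, 16 held the E2F-type motif (38.1%), against 2.79% of 27305 promoters in the table. It was in 6 of the 20 called higher with an entry and in 10 of the 22 that did not pass. CCAAT was in 24 of 42 (57.1%), against 33.0% of all promoters, in 15 of 20 called and in 9 of 22 that did not pass. Over the 42, the median log2 fold change was 0.26 with CCAAT and 0.10 without, and 0.24 and 0.23 for the E2F-type motif. Among the 20 called it was 0.41 with CCAAT and 0.66 without, and 0.66 and 0.43 for the E2F-type motif. A link between motif and change was not tested. A match is a stretch of letters, not a measured binding site. Genes with no entry were MCM4, MCM5, GINS4, POLD3, RPA2, RPA3 and E2F8.

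Of the 6 subunits of the origin recognition complex, only ORC1 was called (16.7%), against 26.4% of all tested genes called higher. ORC1 (ENSG00000085840, chromosome 1, 52372829 to 52404459, minus strand, GRCh38), the ATPase subunit whose abundance follows the cell cycle, measured 22.3 and 22.7 FPKM in the shCON libraries and 34.3 and 33.2 FPKM in the shFAM49B libraries. The replicates of each group lay close together and the groups did not overlap. Its mean went from 22.5 ± 0.288 to 33.8 ± 0.75 FPKM (SD, n = 2), 1.5-fold higher (log2 fold change 0.57, SE 0.0546, limma adjusted p = 0.00240). ORC1 was the most abundant subunit per length and ORC4 the least in every library, and the ratio between them went from 3.8 and 3.48 times in shCON to 5.65 and 6.87 times in shFAM49B. ORC3 had a log2 fold change of 0.26 and just missed the threshold (adjusted p = 0.0661, limma), with both shFAM49B libraries above the controls, and was called higher with voom, with the GC trend removed and with a filter at 5 FPKM. ORC2, ORC4, ORC5 and ORC6 had values of 0.031, -0.16, -0.011 and -0.040 and did not pass. The median over the 6 was 0.01. The ratio of ORC1 to ORC6 within a library, which no single factor per library can alter, was 1.58 and 1.54 in shCON and 2.47 and 2.36 in shFAM49B. This pair was chosen after its values were seen, a called gene over one not called, which fixes the direction.

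Of the 3 helicase loading genes, 2 (66.7%) were called higher, against 26.4% of all tested genes. That share was 52.4% at 20 to 100 FPKM, where GMNN and CDC6 lie, and 82.3% at 100 FPKM and above, where CDT1 lies. CDT1 had the largest change of all 49 as deposited. CDT1 (ENSG00000167513, chromosome 16, 88803213 to 88809258, plus strand), which brings MCM2-7 to the origin, measured 105 and 100.0 FPKM in the shCON libraries and 210.3 and 238 FPKM in the shFAM49B libraries. Both shFAM49B libraries were far above both controls. Its mean went from 102 ± 3.41 to 224 ± 19.9 FPKM (SD, n = 2), 2.19-fold higher (log2 fold change 1.12, SE 0.0783, limma adjusted p = 0.00161). GMNN, its inhibitor, went from 26.8 ± 1.83 to 31.6 ± 0.418 FPKM, 1.18-fold (log2 fold change 0.23, SE 0.0669, limma adjusted p = 0.0429), and CDC6, the partner ATPase in loading, went from 26.4 ± 0.0989 to 28.1 ± 0.963 FPKM and did not pass (log2 fold change 0.089, limma adjusted p = 0.254). GMNN was called under the deposited scaling alone of the 7 compared, and lost its call without any 1 library other than shCON replicate 2. The CDT1 to GMNN ratio within a library was 4.1 and 3.56 in shCON and 6.6 and 7.62 in shFAM49B, a 1.86-fold change. For CDT1 to CDC6 it was 3.97 and 3.8 in shCON and 7.67 and 8.28 in shFAM49B. The ratios are a description and were not tested: the pairs were chosen after the values were seen, most of them a called gene over one that was not called, which fixes their direction.

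The MCM2-7 core had the highest median change of the 9 groups as deposited, 0.60, with 5 of 6 subunits called higher and none lower. Over all tested genes, 26.4% were called higher. The share was 52.4% at 20 to 100 FPKM and 82.3% at 100 FPKM and above, the classes in which these 6 lie. MCM5 (ENSG00000100297, chromosome 22, 35400063 to 35425430, plus strand), which forms with MCM2 the gate through which DNA enters the ring, measured 22.9 and 21.8 FPKM in the shCON libraries and 38.6 and 40.9 FPKM in the shFAM49B libraries. Both shFAM49B libraries lay well above the controls. Its mean went from 22.3 ± 0.784 to 39.7 ± 1.64 FPKM (SD, n = 2), 1.78-fold higher (log2 fold change 0.80, SE 0.0615, limma adjusted p = 0.00175). MCM7 (ENSG00000166508, chromosome 7, 100092728 to 100101940, minus strand), an ATPase subunit of the ring, measured 108 and 100.3 FPKM in the shCON libraries and 177 and 187 FPKM in the shFAM49B libraries. The groups were again apart, the mean going from 104 ± 5.49 to 182 ± 6.83 FPKM, 1.75-fold higher (log2 fold change 0.80, SE 0.0651, limma adjusted p = 0.00188). MCM2 (ENSG00000073111, chromosome 3, 127598223 to 127622436, plus strand), the gate partner of MCM5, measured 60.6 and 55.4 FPKM in the shCON libraries and 90.7 and 93.7 FPKM in the shFAM49B libraries. It was 1.59-fold higher (log2 fold change 0.66, SE 0.0654, limma adjusted p = 0.00251), with no overlap between groups.

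MCM6 and MCM4 followed at 1.47-fold and 1.41-fold (log2 fold changes 0.54 and 0.49). MCM3 did not pass, going from 80.4 ± 0.0686 to 89.3 ± 5.14 FPKM (log2 fold change 0.15, limma adjusted p = 0.110), and it was called lower under quantile normalization and cyclic loess, where MCM4 was not called. The 6 proteins form a ring with 1 copy each. In FPKM the highest, MCM7, and the lowest, MCM5, stood 4.57 to 4.72 times apart in all 4 libraries. FPKM divides by the deposited gene length, 4386 bases for MCM7 and 7338 bases for MCM5. The part of these lengths in the spread was not tested. MCM5 against MCM3 within a library was 0.284 and 0.271 in shCON and 0.451 and 0.44 in shFAM49B, 1.6-fold higher.

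Of 6 genes of CMG assembly and firing, 4 (66.7%) were called higher, against 26.4% of all tested genes. At 20 to 100 FPKM, where CDC45, MCM10 and GINS2 lie, the share of all genes was 52.4%. At 5 to 20 FPKM, where GINS1, GINS3 and GINS4 lie, it was 29.6%. CDC45 (ENSG00000093009, chromosome 22, 19479459 to 19520612, plus strand), the helicase cofactor that travels with MCM2-7, measured 28.7 and 28.1 FPKM in the shCON libraries and 40.1 and 42.6 FPKM in the shFAM49B libraries. Both shFAM49B libraries were above both controls. Its mean went from 28.4 ± 0.395 to 41.3 ± 1.79 FPKM (SD, n = 2), 1.46-fold higher (log2 fold change 0.53, SE 0.0586, limma adjusted p = 0.00316). MCM10, which is needed for the assembled helicase to start unwinding, rose 1.28-fold from 20.2 ± 0.783 to 25.9 ± 0.906 FPKM. Within the GINS complex, which has 4 subunits, GINS1 and GINS2 were called (log2 fold changes 0.24 and 0.27) whereas GINS3 and GINS4 were not (0.074 and 0.0086). GINS3 and GINS4 were also the lowest of the 6 genes, GINS3 at 7.17 and 7.6 FPKM on average in shCON and shFAM49B and GINS4 at 9.99 and 10.1 FPKM. Whether their changes differ from those of GINS1 and GINS2 was not tested. The count of 4 fell to 1 without shCON replicate 2 and to 2 without any other library, and to 1, CDC45, as TPM, with plain division, quantile normalization and cyclic loess. GINS4 was called lower as TPM and with plain division.

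Among the 9 polymerase and primase genes, 4 (44.4%) were called higher, against 26.4% of all tested genes. That share was 52.4% at 20 to 100 FPKM, where POLA1, POLD1 and POLD2 lie. It was 12.1% at 1 to 5 FPKM, where POLA2 lies, and 29.6% at 5 to 20 FPKM, where the rest lie. The 4 called were led by DNA polymerase delta, which copies the lagging strand. POLD1 (ENSG00000062822, chromosome 19, 50384204 to 50418016, plus strand), its catalytic subunit, measured 39.4 and 35.8 FPKM in the shCON libraries and 59.7 and 64.5 FPKM in the shFAM49B libraries. The groups did not overlap. Its mean went from 37.6 ± 2.53 to 62.1 ± 3.39 FPKM (SD, n = 2), 1.65-fold higher (log2 fold change 0.71, SE 0.0735, limma adjusted p = 0.00276). POLD2, the subunit that joins the catalytic and accessory parts, rose 1.43-fold from 57.0 ± 0.844 to 81.4 ± 3.75 FPKM, and POLD3 just missed the threshold (log2 fold change 0.19, limma adjusted p = 0.0661). Polymerase alpha and primase lay down the RNA-DNA primers. Of these POLA1, the catalytic subunit, and PRIM1, the primase catalytic subunit, were called (0.26 and 0.33), and POLA2 and PRIM2, their partners, were not (0.25 and 0.12). POLA2 was the lowest of the 9 in every library, at 4.37 and 3.38 FPKM in shCON, and its interval was wide (95% interval -0.034 to 0.54). Polymerase epsilon, the leading-strand enzyme, did not pass for either gene: POLE had a log2 fold change of 0.17 (limma adjusted p = 0.0802) and POLE2 of -0.0032. The POLD1 to POLE ratio within a library was 2.9 and 2.57 in shCON and 3.96 and 3.98 in shFAM49B, 1.45-fold higher. The count of 4 fell to 2 without shCON replicate 2 or shFAM49B replicate 1, to 2 as TPM, with plain division and with quantile normalization, and to 1, POLD1, with cyclic loess, whereas voom on recovered reads called 7.

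Of the 6 clamp and clamp loader genes, 2 (33.3%) were called higher, against 26.4% of all tested genes, and PCNA was not among the 2. The share of all genes was 52.4% at 20 to 100 FPKM, where the RFC genes lie, and 82.3% at 100 FPKM and above, where PCNA lies. PCNA (ENSG00000132646, chromosome 20, 5114953 to 5126626, minus strand), the sliding clamp, had the highest mean level of the 49 over the 4 libraries and measured 192 and 216 FPKM in the shCON libraries and 189 and 184 FPKM in the shFAM49B libraries. Both shFAM49B libraries were slightly below both controls, but the change did not pass (log2 fold change -0.13, SE 0.0739, limma adjusted p = 0.215); it did pass as lower under 4 other scalings (TPM, plain division, quantile normalization and cyclic loess). RFC5 (ENSG00000111445, chromosome 12, 118013588 to 118033130, plus strand), a small subunit of the clamp loader, measured 26.3 and 25.6 FPKM in the shCON libraries and 38.0 and 38.4 FPKM in the shFAM49B libraries. It was 1.47-fold higher, from 25.9 ± 0.476 to 38.2 ± 0.313 FPKM (SD, n = 2, log2 fold change 0.54, SE 0.0533, limma adjusted p = 0.00246). RFC2 rose 1.38-fold (log2 fold change 0.45), though it was not called with quantile normalization or cyclic loess, and RFC1, RFC3 and RFC4 did not pass (0.11, 0.017 and 0.078). RFC5 against RFC3 was 0.682 and 0.671 in shCON and 0.928 and 1.05 in shFAM49B. MCM7 against PCNA was 0.562 and 0.464 in shCON and 0.938 and 1.01 in shFAM49B, a 1.9-fold change.

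All 3 subunits of RPA, the protein that coats single-stranded DNA, were called as deposited, each by a small amount, but RPA1 and RPA2 under none of the 6 other scalings, with values below 0 as TPM and with quantile normalization and cyclic loess. RPA3 (ENSG00000106399, chromosome 7, 7636518 to 7718607, minus strand), the small subunit, measured 11.3 and 12.5 FPKM in the shCON libraries and 16.1 and 15.2 FPKM in the shFAM49B libraries, with the groups apart. It was 1.32-fold higher, from 11.9 ± 0.874 to 15.6 ± 0.64 FPKM (SD, n = 2, log2 fold change 0.37, SE 0.0741, limma adjusted p = 0.0142), and was not called as TPM, with plain division or with quantile normalization. RPA1 (ENSG00000132383, chromosome 17, 1829702 to 1900082, plus strand), the large DNA-binding subunit, measured 46.8 and 45.8 FPKM in the shCON libraries and 54.2 and 54.9 FPKM in the shFAM49B libraries, with the replicates close and the groups apart. It was 1.18-fold higher, from 46.3 ± 0.691 to 54.5 ± 0.514 FPKM (SD, n = 2, log2 fold change 0.23, SE 0.052, limma adjusted p = 0.0203). RPA2 had a log2 fold change of 0.22. The 3 RPA genes made up 60% of this group, against 26.4% of all tested genes called higher. That share was 52.4% at 20 to 100 FPKM, where RPA1, RPA2 and FEN1 lie. It was 29.6% at 5 to 20 FPKM, where RPA3 and LIG1 lie. Of the 3 genes called in this group, 1 was called without shCON replicate 2 and 0 without any other library. FEN1, the nuclease that trims Okazaki fragments, overlapped between groups at 57.5 and 56.0 FPKM on average in shCON and shFAM49B, but it was called lower under 5 of the 6 other scalings, down to -0.36 with cyclic loess. LIG1, the ligase that seals them, just missed the threshold (log2 fold change 0.22, limma adjusted p = 0.0617).

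In nucleotide supply, both subunits of ribonucleotide reductase rose and both thymidylate enzymes did not pass. That is 50% of the group called higher, against 26.4% of all tested genes. At 20 to 100 FPKM, where RRM1, RRM2 and TK1 lie, the share of all genes was 52.4%, near that of the group. At 5 to 20 FPKM, where TYMS lies, it was 29.6%. RRM1 (ENSG00000167325, chromosome 11, 4094707 to 4138876, plus strand), the large subunit of the enzyme that makes deoxynucleotides, measured 73.4 and 74.6 FPKM in the shCON libraries and 97.5 and 100.1 FPKM in the shFAM49B libraries. Both shFAM49B libraries were above both controls. It was 1.34-fold higher, from 74.0 ± 0.886 to 98.8 ± 1.81 FPKM (SD, n = 2, log2 fold change 0.41, SE 0.0524, limma adjusted p = 0.00412). RRM2, the S phase partner subunit, rose 1.3-fold from 24.3 ± 0.169 to 31.5 ± 1.38 FPKM, and the RRM2 to RRM1 ratio was 0.332 and 0.324 in shCON and 0.313 and 0.325 in shFAM49B. RRM1 was not called under quantile normalization and cyclic loess, nor RRM2 as TPM, with plain division or with cyclic loess. TYMS, which makes thymidylate, and TK1, which salvages thymidine, had log2 fold changes of 0.10 and 0.097 (limma adjusted p = 0.274 and 0.217), and TK1 was called lower with quantile normalization and cyclic loess. RRM2B, the alternative small subunit induced by p53 and not one of the 49, moved the other way, from 7.88 ± 0.252 to 4.77 ± 0.372 FPKM, 1.65-fold lower (log2 fold change -0.62, SE 0.0771, limma adjusted p = 0.00388).

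Of the 4 regulators, E2F1 alone was called (25%), against 26.4% of all tested genes called higher. E2F1 (ENSG00000101412, chromosome 20, 33675683 to 33686404, minus strand), an activator E2F, measured 34.7 and 36.9 FPKM in the shCON libraries and 62.0 and 62.1 FPKM in the shFAM49B libraries. The groups did not overlap, and the mean went from 35.8 ± 1.5 to 62.0 ± 0.117 FPKM (SD, n = 2), 1.73-fold higher (log2 fold change 0.78, SE 0.057, limma adjusted p = 0.00167). E2F2, another activator, and E2F8, a repressor, lay lower in both shFAM49B libraries without passing (log2 fold changes -0.10 and -0.22, limma adjusted p = 0.297 and 0.0773), and were called lower under 5 and 4 of the 6 other scalings. UHRF1, which brings the maintenance methyltransferase to newly copied DNA, did the same at -0.14 (adjusted p = 0.133, limma) and was called lower under all 6 other scalings. E2F1 against E2F2 within a library was 1.87 and 1.94 in shCON and 3.75 and 3.37 in shFAM49B. E2F3, an activator outside the 49, fell from 21.7 ± 0.644 to 14.3 ± 1.32 FPKM, 1.52-fold lower (log2 fold change -0.58, SE 0.0787, limma adjusted p = 0.00485), and E2F1 against E2F3 was 1.57 and 1.73 in shCON and 4.65 and 4.09 in shFAM49B.

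**Figure D4:**
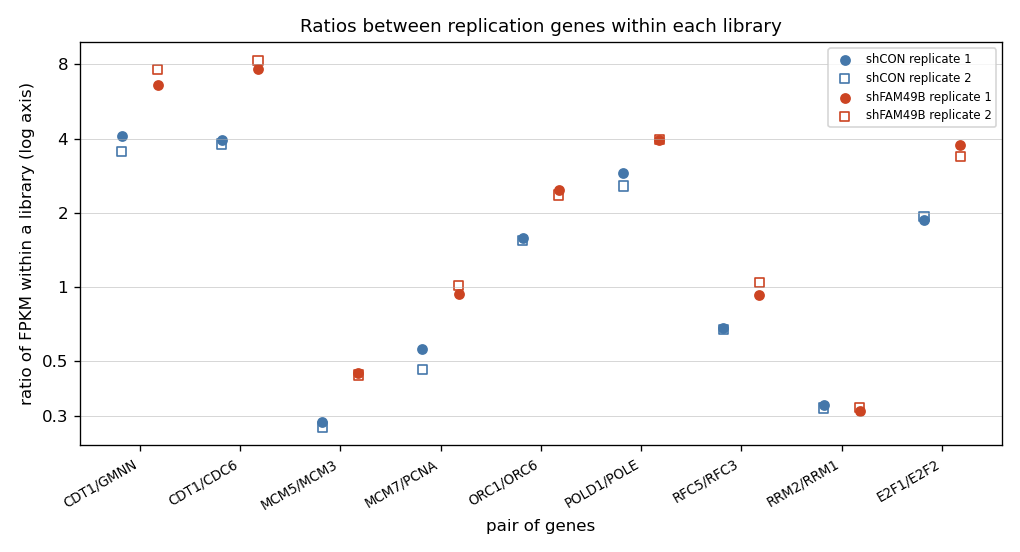
Ratio of FPKM between pairs of replication genes within each library (log axis), blue shCON and red shFAM49B, circles replicate 1 and squares replicate 2. The pairs were chosen after the values were seen, most of them a called gene over one that was not called. For RRM2/RRM1, both called, the 4 ratios lie between 0.313 and 0.332.

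How many replication genes counted as changed depended on the scaling between libraries. The deposited FPKM values were already divided by median ratios between libraries, which places shFAM49B higher relative to shCON than division by reads would. Rescaled to TPM (each library rescaled to the same sum), the median of all tested genes moved by -0.22, 11.6% of genes were called higher and 31.7% lower, and 14 replication genes were higher and 7 lower. With plain division by the reads of each library, 12.5% of all genes were higher and 30.3% lower, and the replication genes again split into 14 and 7. With quantile normalization the shares were 19.2% and 17.8% and the replication counts 12 and 6. With cyclic loess, which removes a trend with level and was chosen after seeing the data, they were 18.2% and 18.7% against 11 and 6. The median over the 49 genes was -0.0095 as TPM, 0.0096 with plain division, 0.084 with quantile normalization and 0.072 with cyclic loess, beside -0.17, -0.13, 0.02 and 0.0051 over all genes. Median ratios over the tested genes gave 19 higher and 2 lower, against 21.2% and 19.2% of all genes, and removal of the GC trend, also chosen after seeing the data, gave 22 and 4, against 21.7% and 19.9%.

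Under all 7 scalings compared, including median ratios over the tested genes and a removed trend with G and C content, 10 genes were called higher: ORC1, CDT1, MCM2, MCM5, MCM6, MCM7, CDC45, POLD1, RFC5 and E2F1. Their lowest log2 fold changes over the 7 ran from 0.21 for MCM6 to 0.62 for CDT1, with MCM5 at 0.58 and E2F1 at 0.49. The share of all tested genes called higher under all 7 is not given, so the 10 have no like share beside them. Each scaling alone called 11.6% to 26.4% of all tested genes higher. Of the replication genes, another 15 were called higher under some scalings, among them MCM4, POLD2, RRM1, RRM2 and all 3 RPA subunits. A further 9 were called lower under at least 1: ORC6, MCM3, GINS4, PCNA, FEN1, TK1, E2F2, E2F8 and UHRF1. PCNA reached -0.67 with cyclic loess and UHRF1 -0.43, and both were lower in several. The other 15, such as CDC6, POLE, TYMS and RFC1, were called under none of the 7.

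**Figure D5:**
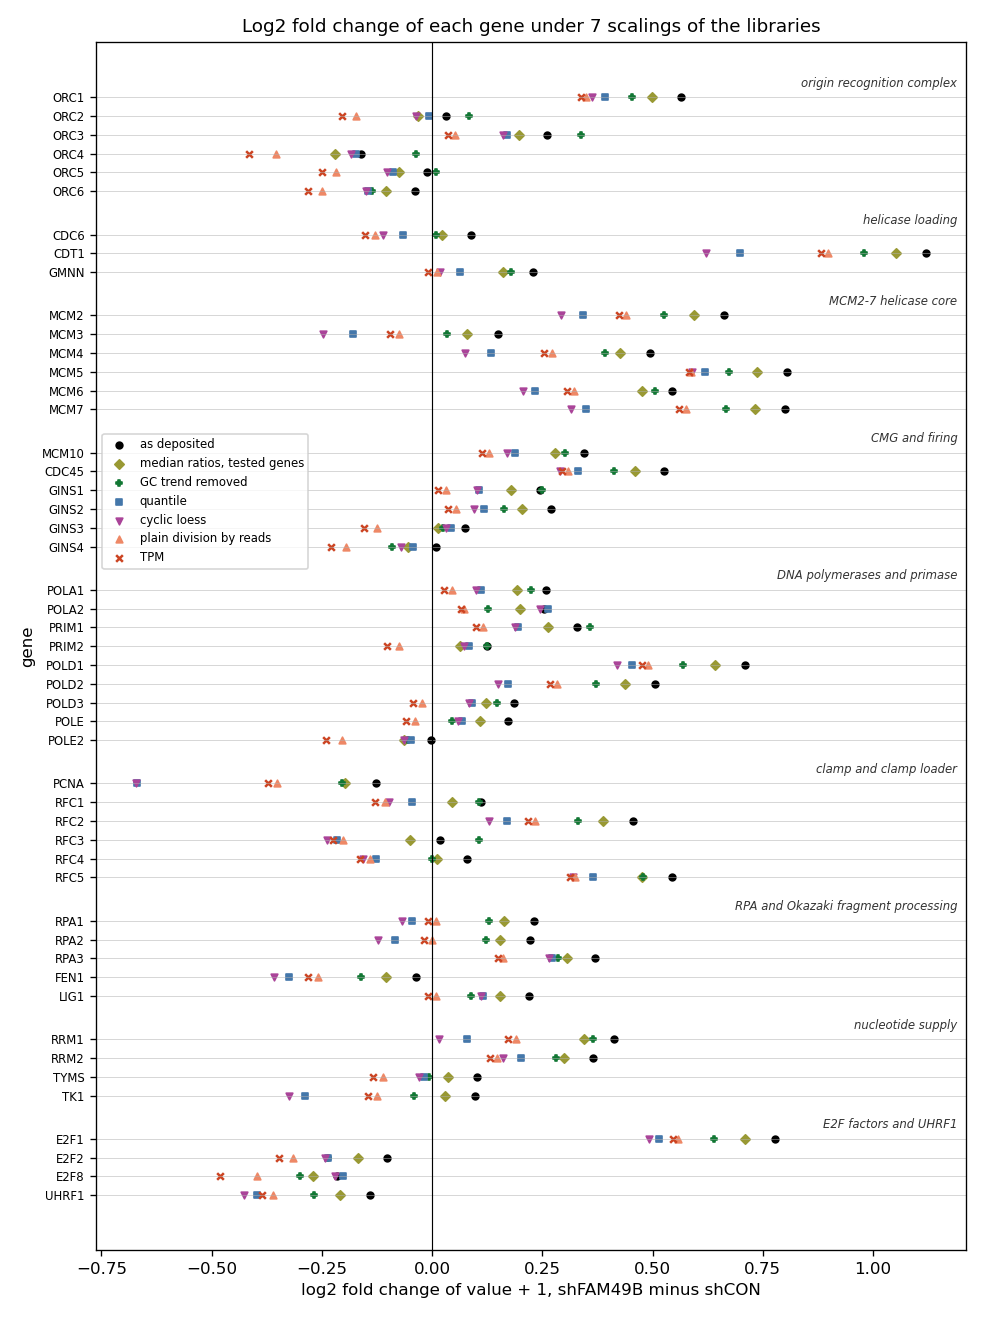
Log2 fold change of each replication gene, shFAM49B minus shCON, under 7 scalings of the libraries (symbols), grouped by complex. All 7 symbols of CDT1, MCM5, POLD1 and E2F1 lie to the right of 0, whereas those of MCM3, GMNN and RPA1 fall on both sides.

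Other genes of the replication pathway, 77 in 5 lists of which 73 were tested, were called in both directions, 21 higher and 12 lower, against the same 26.4% and 15.8% of all genes. Of the kinases and scaffolds that fire origins, 4 of 12 rose and none fell. The 3 of smallest p were TICRR, the scaffold treslin, from 9.2 ± 0.792 to 13.7 ± 0.509 FPKM (1.49-fold higher, log2 fold change 0.53, SE 0.0781, limma adjusted p = 0.00605), MCMBP, a chaperone of MCM proteins, and DBF4B, an activator of the CDC7 kinase, the latter pair at log2 fold changes of 0.23 and 0.33. Of 15 fork proteins, 5 rose and 2 fell, with DTL, which targets CDT1 for destruction at PCNA, up 1.36-fold (log2 fold change 0.43, SE 0.0512, limma adjusted p = 0.00347), and the nuclease DNA2 and topoisomerase TOP2A at 0.29 and 0.35.

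Of 8 genes of chromatin assembly, 3 rose and 1 fell. The one that fell was the histone chaperone ASF1A, from 11.8 ± 0.299 to 7.43 ± 0.499 FPKM, 1.59-fold lower (log2 fold change -0.60, SE 0.0708, limma adjusted p = 0.00344), while the histone-binding RBBP4 and the maintenance methyltransferase DNMT1 rose (log2 fold changes 0.34 and 0.34). Of 17 further enzymes of nucleotide supply, 5 rose and 5 fell. IMPDH2, of guanine nucleotide synthesis, and CAD, of pyrimidine synthesis, rose 1.46-fold and 1.43-fold, and RRM2B fell as given above. Of 21 G1/S regulators, 4 rose and 4 fell: CKS1B, a CDK-binding subunit, and CDC25A, a phosphatase that activates CDK2, rose 1.56-fold and 1.6-fold (limma adjusted p = 0.00242 and 0.00272), and E2F3 fell. Of the genes named from the lists, TICRR, ASF1A, RRM2B, CAD, E2F3, CDC25A and CKS1B kept their call in every alternative run gene by gene, whereas MCMBP and TOP2A changed sign under at least 1 other scaling. Under TPM the 73 genes split into 7 higher and 25 lower, and under quantile normalization into 9 and 16.

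The reads behind a replication gene numbered from 221 to 12458 per library, and the lowest count of a gene over the 4 libraries had a median of 1561. Of the 49, 14 overlap another tested gene in the annotation, 11 of them on the opposite strand, and the sources do not say whether strand was used in counting, so reads may be shared. The called genes MCM7 and MCM2 overlap AP4M1 and TPRA1, at 5.30 and 12.4 FPKM in shFAM49B, far below themselves. AP4M1 and TPRA1 were called higher too (log2 fold changes 0.37 and 0.24, limma adjusted p = 0.0140 and 0.0311). FEN1, which did not pass, overlaps TMEM258 on the opposite strand and FADS2 on the same strand, both called higher (log2 fold changes 0.83 and 0.91). RFC5 overlaps WSB2, at 8.06 FPKM in shCON and 12.2 FPKM in shFAM49B, which rose as well, and PRIM1 overlaps NACA on the same strand, at 42.0 and 63.7 FPKM, above PRIM1 itself. POLA1 overlaps the pseudogene EEF1B2P3, at 16.9 FPKM in shCON and 30.2 FPKM in shFAM49B (log2 fold change 0.80, limma adjusted p = 0.00450), beside 18.9 and 22.8 FPKM for POLA1. RFC4, which did not pass, overlaps EIF4A2 (44.5 and 88.7 FPKM). Of 15 processed pseudogenes of these genes in the table, 4 had any reads and the highest value was 0.306 FPKM.

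Leaving out each library in turn, which leaves 1 library in a group, the median log2 fold change over the 49 was 0.19 to 0.25. Of the genes called with all 4 libraries, GINS1, GINS2, GMNN, MCM10, POLA1, PRIM1, RPA1, RPA2 and RPA3 lost their call in at least 1 such fit. With all 4 libraries their log2 fold changes were 0.22 to 0.37.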

How the data were processed

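The deposited table gives FPKM for 58735 genes in 4 libraries with gene length and coordinates, per the file headers. Which aligner and counter the authors used is not stated in these sources. Mouse builds (GRCm38, mm10) stand in the submitters' processing notes, but all 58735 identifiers are human and present in GENCODE release 29, 58724 of them with the same start and end, all 49 replication genes included, so coordinates are given on GRCh38. Multiplied by gene length, 100% of FPKM values above 0 were whole multiples of the value of 1 read (tolerance 0.001 of it), which gave 15639559 and 16875353 reads in shCON and 16288871 and 16290200 in shFAM49B. In each library the denominator matched scaling by median ratios over 20791 genes. At this depth 1 read in 1 kb of gene equals 0.0541 to 0.0668 FPKM.

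The test was limma (version 3.58.1, R 4.3.3) on log2(FPKM + 1) of the deposited values, with a trended empirical Bayes spread, restricted to genes averaging 1 FPKM or more, 2-sided, with Benjamini-Hochberg adjustment over 13775 genes. Folds are ratios of mean FPKM, and log2 fold changes understate those of low genes. Other tables and figures were made in Python 3.11.15. The fit was also run on simulated reads in which few genes changed and no shift between libraries was set. That run cannot judge the scalings, and its outcome is not given here. Alternatives were a pseudocount of 0.1, no filter, a filter at 5 FPKM, other scalings, voom on recovered reads, no trend, a replicate block and each library left out.

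The 49 genes, the pathway lists and the markers were chosen with earlier results of these data known. Values in every library are given for genes called with at least a 1.5-fold change and for the gene of smallest p in each group, with the 3 of smallest p named from each pathway list. Other genes with values in every library (PCNA and RPA1) and the pairs in ratios were chosen after their values were seen. GC content came from GENCODE transcripts, and promoters from RefSeq's table. One marker result is not reported here.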

Additional observations from a re-analysis of the deposited data

How the results depend on the processing

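Of the genes called, 10 (ORC1, CDT1, MCM2, MCM5, MCM6, MCM7, CDC45, POLD1, RFC5 and E2F1) kept their call in every alternative run gene by gene. The matching share of all tested genes is not given. Over all tested genes, 3642 were higher and 2170 lower as reported, 2185 and 1378 with no filter on low values, 3187 and 1322 with a filter at 5 FPKM, 1597 and 4362 as TPM, 1722 and 4173 with plain division, 2647 and 2446 with quantile normalization, 2504 and 2582 with cyclic loess, 2926 and 2647 with median ratios over tested genes, 2988 and 2746 with the GC trend removed and 4286 and 2793 with voom. Of the replication genes, 24 were higher and 0 lower as reported, 14 and 7 as TPM and with plain division, 12 and 6 with quantile normalization, 11 and 6 with cyclic loess, 19 and 2 with median ratios over tested genes and 22 and 4 with the GC trend removed. Their median was 0.23 as reported, -0.0095 as TPM, 0.0096 with plain division, 0.16 with median ratios over tested genes, 0.084 with quantile normalization, 0.072 with cyclic loess and 0.13 with the GC trend removed. The cause was not tested. Cyclic loess, the GC trend and the crossed block were chosen after seeing the data.

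Leaving out each library in turn gave 1897 to 2495 genes higher and 1027 to 1529 lower over all genes, 16 to 17 replication genes higher and 0 lower, and medians of 0.19 to 0.25, each fit assuming that the lone library of a group varies like the other group. Fewest genes overall were higher without shFAM49B replicate 2 (1897) and fewest were lower without shCON replicate 1 (1027); without shCON replicate 2 there were 2342 and 1142.

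With the replicate number as a block, 22 replication genes were higher and 0 lower (3429 and 2036 over all genes). The labels share only a number: deviations of same-numbered libraries correlated at -0.013 over 13775 genes. The crossed pairing gave 23 and 0 (3078 and 1749). With no filter 5, with no trend 4 and with the block 3 of the 24 calls were lost, while voom added 5, the 5 FPKM filter, which drops POLA2 and E2F8, added 3, and a pseudocount of 0.1 changed none.

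As TPM the log2 fold change turned sign for ORC2 (-0.20), CDC6 (-0.15), GMNN (-0.0086), MCM3 (-0.094), GINS3 (-0.15), GINS4 (-0.23), PRIM2 (-0.10), POLD3 (-0.044), POLE (-0.059), RFC1 (-0.13), RFC3 (-0.23), RFC4 (-0.16), RPA1 (-0.0095), RPA2 (-0.019), LIG1 (-0.0095), TYMS (-0.13), TK1 (-0.15), MCMBP (-0.0054). With plain division the log2 fold change turned sign for ORC2 (-0.17), CDC6 (-0.13), MCM3 (-0.075), GINS3 (-0.12), GINS4 (-0.20), PRIM2 (-0.076), POLD3 (-0.024), POLE (-0.038), RFC1 (-0.11), RFC3 (-0.20), RFC4 (-0.14), TYMS (-0.11), TK1 (-0.13). With quantile normalization the log2 fold change turned sign for ORC2 (-0.0072), CDC6 (-0.065), MCM3 (-0.18), GINS4 (-0.043), RFC1 (-0.045), RFC3 (-0.21), RFC4 (-0.13), RPA1 (-0.045), RPA2 (-0.084), TYMS (-0.017), TK1 (-0.29), TOP2A (-0.072). With cyclic loess the log2 fold change turned sign for ORC2 (-0.037), CDC6 (-0.11), MCM3 (-0.25), GINS4 (-0.070), RFC1 (-0.097), RFC3 (-0.24), RFC4 (-0.16), RPA1 (-0.068), RPA2 (-0.12), TYMS (-0.029), TK1 (-0.33), TOP2A (-0.093). With median ratios over tested genes the log2 fold change turned sign for ORC2 (-0.031), GINS4 (-0.054), RFC3 (-0.050). With the GC trend removed the log2 fold change turned sign for ORC5 (0.0093), GINS4 (-0.091), RFC4 (-0.00067), TYMS (-0.0071), TK1 (-0.041). Over the fits without 1 library the sign turned at least once for ORC2 (-0.041 to 0.10), ORC5 (-0.088 to 0.067), GINS3 (-0.029 to 0.18), GINS4 (-0.021 to 0.039), POLE2 (-0.047 to 0.041), RFC3 (-0.060 to 0.094), RFC4 (-0.0059 to 0.16), FEN1 (-0.081 to 0.0055).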
